A study of Mus musculus with 8 samples.

Results

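Hrk and 9 relatives in the Bcl2 family were followed across 8 libraries of polyadenylated RNA from cultured mouse hippocampal neurons in which the deadenylase CNOT7 was or was not knocked down. The 10 genes were taken by name from the deposited gene table of 23845 entries. They are the 6 BH3-only genes Hrk, Bbc3, Bcl2l11, Bad, Bid and Bmf, the 2 effectors Bax and Bak1, and the 2 anti-apoptotic genes Bcl2 and Bcl2l1. All 10 had an entry, and 10 of 10 were among the 13681 genes that averaged at least 1 TPM (the share of a library taken by an mRNA after correction for its length) and were tested. Hrk was picked because its level differed between knockdown and scrambled neurons in these same libraries. Its knockdown differences are therefore given as a description, with no test.

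Neurons came from mouse embryos at embryonic day 19 and were infected with lentivirus at 13 to 15 days in vitro. The 4 groups had 2 libraries each: knockdown neurons, carrying a hairpin RNA against CNOT7, in total poly(A) RNA and in long-tail RNA, and control neurons, carrying a scrambled hairpin, in the same 2 fractions. All cultures were thus infected, and were harvested at 17 to 19 days in vitro. Total poly(A) RNA was everything that bound poly(U) agarose and came off at 75 °C, whereas the long-tail libraries were made after an added wash at 50 °C, stated to remove tails under 50 nucleotides. The labels do not name the mouse strain, the promoter of the hairpin, the number of hairpin sequences or whether replicate libraries are separate cultures, so p-values here reflect only how far these libraries scatter.

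Bcl2 family proteins set whether the outer mitochondrial membrane stays closed during stress. Bax and Bak1 form the pores that release cytochrome c, Bcl2 and Bcl2l1 (Bcl-xL) hold them in check, and BH3-only proteins bind the anti-apoptotic proteins or the effectors and so tip the balance towards death. Hrk (Harakiri) is a BH3-only protein of the nervous system that binds Bcl-2 and Bcl-xL, and neurons deprived of trophic support are known to induce its mRNA through JNK and c-Jun. CNOT7 is a catalytic subunit of the CCR4-NOT complex, which shortens poly(A) tails, and Pumilio proteins are among the factors known to recruit that complex to 3' UTRs.

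Read depth is unknown, because the values are TPM that the authors rounded to whole numbers. A step of 1 TPM is therefore the finest difference that can be seen, and it is a large one for Bcl2l11 and Bmf. The targeted gene followed its labels: Cnot7 had 12 and 16 TPM in knockdown total RNA against 42 and 36 TPM in scrambled total RNA, and 9 and 11 TPM in knockdown long-tail RNA against 28 and 31 TPM in scrambled long-tail RNA. The ribosomal precursor Rn45s took between 2.90% and 18.6% of a library, and both extremes were knockdown long-tail libraries. Knockdown long-tail library 2 stood apart on the principal component that held 50.1% of the variance. Neuronal markers, led by Snap25 and Camk2a, summed to 4569 to 6892 TPM over the 8 libraries, and astrocyte markers, led by Gfap, to 3259 to 6019 TPM. Of the 11 neuronal markers 6 had higher and 5 lower estimates in knockdown total RNA (median log2 difference 0.07). In knockdown long-tail RNA 8 had higher and 3 lower estimates (median 0.12). At an unadjusted p under 0.05, 2 neuronal markers were higher and 1 lower in total RNA, and 1 was higher and 1 lower in long-tail RNA. Of the 10 astrocyte markers 9 had lower estimates in knockdown total RNA (median -0.23) and 8 in knockdown long-tail RNA (median -0.29), with 0 and 2 of the 10 at an unadjusted p under 0.05. Microglial markers summed to 2 to 17 TPM, and 4 of 10 were at 0 in every library, while markers of dividing cells summed to 154 to 228 TPM. Endothelial and mural markers summed to 179 to 342 TPM, with 3 of 10 at 0 in every library. Most of that sum was Acta2, which averaged 219.9 TPM. The next marker, Kdr, averaged 13.1 TPM, and the endothelial markers Cdh5 and Flt1 stood at 0 or 1 TPM. The 14 markers of the oligodendrocyte lineage summed to 1269 and 1302 TPM in knockdown total RNA, against 1878 to 2068 TPM in scrambled total RNA. In long-tail RNA they summed to 1107 to 1380 TPM in knockdown neurons, against 1652 to 2041 TPM in scrambled neurons. None of the 14 was at 0 in all libraries, and 13 of the 13 that were tested had lower estimates in knockdown neurons in each fraction, with 0 called by limma and 5 at an unadjusted p under 0.05 in each fraction. Over all 13681 tested genes 8235 had lower estimates in total RNA and 8379 in long-tail RNA, and 6.34% and 8.72% were at an unadjusted p under 0.05. The authors' deposited table for total RNA lists the myelin gene Mbp at -1.13, and the authors' deposited table for long-tail RNA lists it at -1.08 (log2, knockdown over scrambled). Of the neuronal markers, the authors' deposited tables list Tubb3, at 0.83 for total RNA and 1.00 for long-tail RNA. The part of these markers in the Hrk values below was not tested, and in bulk RNA fewer cells of a type cannot be told apart from less RNA per cell. The word neurons below names the cultures, whose libraries also held astrocyte and oligodendrocyte markers, so no level is assigned to a cell type.

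Hrk had 12 and 11 TPM in knockdown total RNA, against 30 and 30 TPM in scrambled total RNA. In long-tail RNA it had 8 and 8 TPM in knockdown neurons, against 25 and 21 TPM in scrambled neurons. The knockdown libraries lay below the scrambled libraries in each fraction, with no overlap. On the scale of log2(TPM + 1) the knockdown minus scrambled difference was -1.31 in total RNA and -1.41 in long-tail RNA (SE 0.129 each), which correspond to ratios of 0.403 and 0.376. The median over all tested genes was -0.07 in total RNA and -0.10 in long-tail RNA. By mean level Hrk was lowest in knockdown long-tail RNA at 8 TPM, followed by knockdown total RNA at 11.5 ± 0.707 TPM, scrambled long-tail RNA at 23 ± 2.83 TPM and scrambled total RNA at 30 TPM (SD, n = 2 each). Neighbouring groups in that order did not overlap. Hrk was also the only family member in the authors' deposited tables of genes that passed their own test, which list 104 genes (0.436% of the gene table) for total RNA and 97 genes (0.407%) for long-tail RNA. With the sign turned to knockdown over scrambled, the log2 fold change of Hrk in the authors' deposited table was -1.10 for total RNA, and in the authors' deposited table for long-tail RNA it was -1.28. Because Hrk was chosen on these contrasts, its place in those tables adds no independent support.

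**Figure D1:**
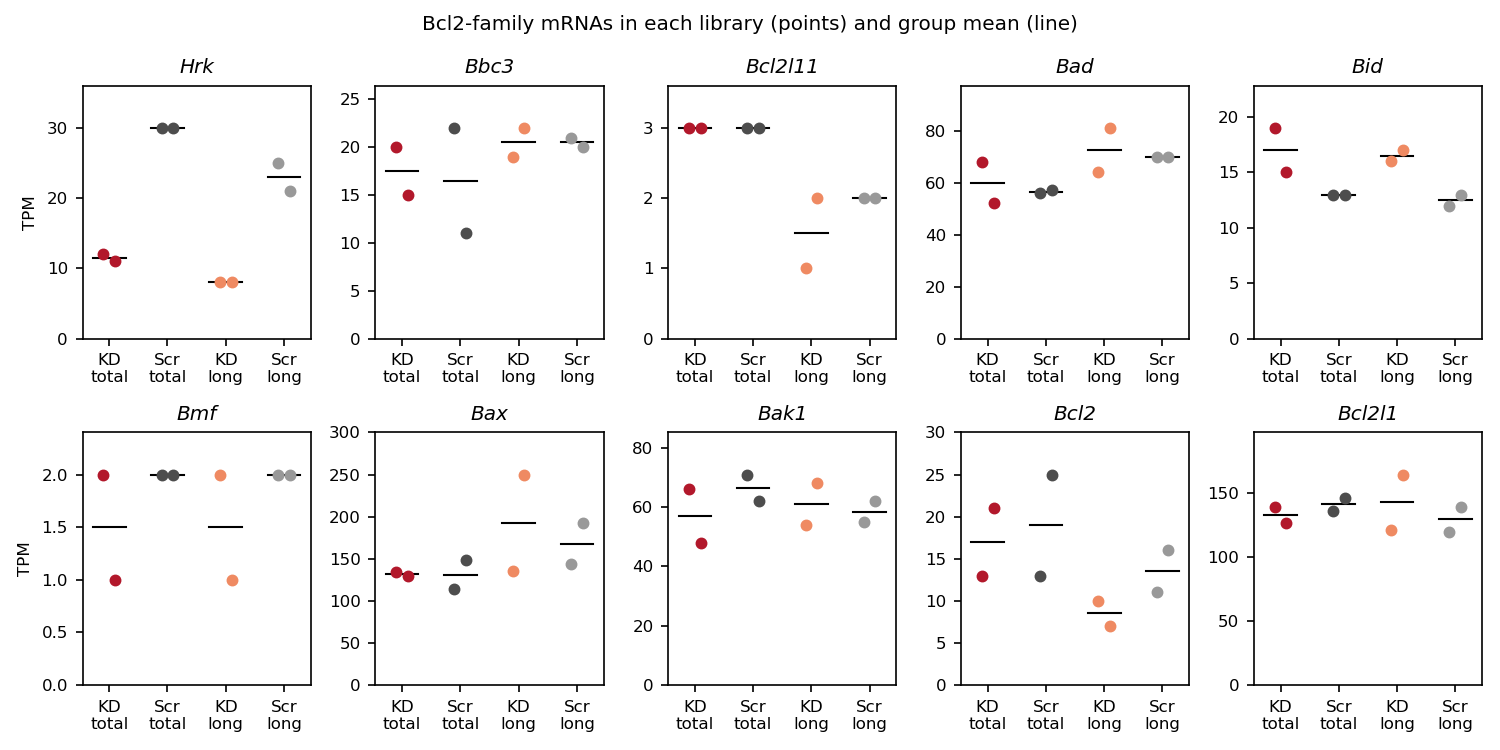
TPM of each of the 10 family members (vertical axes, each from 0) in the 2 libraries of each group, with knockdown (KD) left of scrambled (Scr) within the total and long-tail fractions; points are libraries and lines are group means. The Hrk libraries sit at 11 to 12 and 8 TPM in knockdown neurons and at 30 and 21 to 25 TPM in scrambled neurons, whereas most other members overlap between knockdown and scrambled neurons.

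The Hrk gene lies at chr5:118164648-118189478 on the plus strand of GRCm38, the assembly also called mm10. Its annotated mRNA of 5382 nucleotides has a coding part of 276 nucleotides and a 3' UTR of 5068 nucleotides, longer than 96.9% of the 3' UTRs of 20733 genes, whose median length was 847 nucleotides. Members fell into a group with long 3' UTRs (Bcl2 with 5086, Hrk with 5068, Bcl2l11 with 4218 and Bmf with 3801 nucleotides) and a group with 1473 nucleotides or fewer (Bcl2l1, Bid, Bak1, Bbc3, Bad and, at 165 nucleotides, Bax). Each 3' UTR was searched on the sense strand for the Pumilio element TGTANATA, the cytoplasmic polyadenylation hexamer TTTTAT and the AU-rich heptamer TATTTAT, each counted on its own even where matches share bases. Hrk held 2 Pumilio elements, 5 hexamers and 2 heptamers. Bcl2l11 held 5 Pumilio elements, Bcl2 held 4, Bmf held 3, and Bbc3 and Bcl2l1 held 1 each, while Bad, Bid, Bax and Bak1 held none. Among genes with a 3' UTR of like length (0.8 to 1.25 times), 62.4% held a Pumilio element for Hrk, 62.7% for Bcl2, 55.0% for Bcl2l11 and 51.7% for Bmf. Holding the element was thus common at these lengths. Bcl2 held no TTTTAT, which 95.0% of 3' UTRs of like length held, and Bcl2l11 held 4 and Bmf 2.

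The sites below show both Pumilio elements of Hrk and the element nearest the 3' end in the other members with long 3' UTRs, because these 4 genes are the ones whose long-tail behaviour is compared with that of the short-UTR members. Capitals mark the element, and the strand given is the sense strand.
Hrk, chr5:118186785-118186814, plus strand: gccaagtcctcTGTAAATActctcctgtag
Hrk, chr5:118189419-118189448, plus strand: cctggatgcttTGTACATAtttgttacact
Bcl2l11, chr2:128162450-128162479, plus strand: tgcaatactgcTGTAAATAactgcagattt
Bmf, chr2:118528797-118528826, minus strand: atgtatacatgTGTAAATAtcctctcatcc
Bcl2, chr1:106538329-106538358, minus strand: gcctatagcacTGTACATAcaagaaatata

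The Hrk element at position 5020 of the 3' UTR ended 41 nucleotides before the annotated end of the transcript, that of Bmf 51, that of Bcl2l11 79 and that of Bcl2 162 nucleotides before it. The polyadenylation hexamer differed among members as well. Hrk and Bid held neither AATAAA nor ATTAAA in the last 40 nucleotides, as did 27.7% of all 3' UTRs, while the other members held AATAAA, as did 59.4%. The hexamers of Bax and Bad, the members with the shortest 3' UTRs, are shown in capitals for comparison.
Bax, chr7:45461706-45461735, minus strand: tggggaggcgccAATAAAcctcaggtccac
Bad, chr19:6951862-6951891, plus strand: aacgtgctttatAATAAAgcctgcgcatgt
A match says only that these letters are present, and no binding or tail length was measured at any of these sites.

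TPM allows levels to be compared between genes per length. In scrambled total RNA the family was led by Bcl2l1, with a mean of 141 TPM, and Bax, with a mean of 131 TPM, whose libraries overlapped. Bak1 at 66.5 TPM and Bad at 56.5 TPM came next, and Hrk at 30 TPM was the fifth, apart from its neighbours on both sides. Bcl2, Bbc3 and Bid had means of 19, 16.5 and 13 TPM. The libraries of Bcl2 overlapped those of Bbc3, and those of Bbc3 overlapped those of Bid. Bcl2l11 at 3 TPM and Bmf at 2 TPM were the lowest. In knockdown total RNA Hrk was the eighth of the 10, between Bid at 15 to 19 TPM and Bcl2l11 at 3 TPM, and its libraries were apart from both.

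None of the 9 other members passed the test of knockdown against scrambled neurons in either fraction. By limma with Benjamini-Hochberg adjustment over all tested genes, 0 of these 9 were called in total RNA and 0 in long-tail RNA, as were 0 of 13681 genes (0%) in each. At an unadjusted p under 0.05, 0 of the 9 passed in total RNA, where 868 genes (6.34%) did, and 1 of the 9, Bid, passed in long-tail RNA, where 1193 genes (8.72%) did. Counted with Hrk, libraries did not overlap for 2 of 10 members in total RNA (Hrk lower, Bid higher), against 28.8% of all genes, and for 3 of 10 in long-tail RNA (Hrk and Bcl2 lower, Bid higher), against 26% of all genes. Hrk was chosen on these contrasts, so nothing is read from those counts. The median difference over the 6 BH3-only members was 0.04 in total RNA and -0.15 in long-tail RNA, against -0.07 and -0.10 over all genes.

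Bid links death receptors to mitochondria after cleavage by caspase-8. It had 19 and 15 TPM in knockdown total RNA against 13 and 13 TPM in scrambled total RNA, and 16 and 17 TPM in knockdown long-tail RNA against 12 and 13 TPM in scrambled long-tail RNA. It was higher in every knockdown library of a fraction than in every scrambled library of it, the direction opposite to that of Hrk. The log2 difference was 0.35 in total RNA (SE 0.146, 95% interval -0.0098 to 0.72, limma adjusted p = 0.821) and 0.37 in long-tail RNA (SE 0.146, 95% interval 0.011 to 0.74, limma adjusted p = 0.557). The total RNA value was 0.19 without knockdown total library 1. Bid and Bcl2l13 share 913 nucleotides on opposite strands, and whether the authors' counting used strand is not stated.

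Bbc3 (Puma), a BH3-only gene known as a p53 target, had 20 and 15 TPM in knockdown total RNA, against 22 and 11 TPM in scrambled total RNA. Its long-tail libraries held 19 and 22 TPM in knockdown neurons, against 21 and 20 TPM in scrambled neurons. The groups overlapped in each fraction, with log2 differences of 0.14 in total RNA and -0.0031 in long-tail RNA (SE 0.326 each, limma adjusted p = 1 each). Bad, which growth factor signalling silences by phosphorylation, had 68 and 52 TPM in knockdown total RNA, against 56 and 57 TPM in scrambled total RNA. In long-tail RNA it had 64 and 81 TPM in knockdown neurons, against 70 and 70 TPM in scrambled neurons. Its log2 differences were 0.07 in total RNA (95% interval -0.36 to 0.50) and 0.04 in long-tail RNA (95% interval -0.39 to 0.47). Bcl2l11 (Bim), a potent BH3-only protein regulated by FOXO factors and JNK, was at 3 and 3 TPM in knockdown total RNA against 3 and 3 TPM in scrambled total RNA, and at 1 and 2 TPM in knockdown long-tail RNA against 2 and 2 TPM in scrambled long-tail RNA. Bmf, a BH3-only protein tied to the motor complexes of the cytoskeleton, stayed at 1 or 2 TPM in all 8 libraries. At such levels a difference of 1 TPM is the rounding step, and no knockdown difference in either gene could be resolved.

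The effectors and the anti-apoptotic genes overlapped between knockdown and scrambled neurons, apart from Bcl2 in long-tail RNA. Bax had 134 and 129 TPM in knockdown total RNA against 114 and 148 TPM in scrambled total RNA. It had 136 and 250 TPM in knockdown long-tail RNA against 144 and 192 TPM in scrambled long-tail RNA, and the value of 250 TPM belongs to the library that stood apart. The log2 difference of Bax was 0.02 in total RNA (95% interval -0.78 to 0.81) and 0.15 in long-tail RNA (95% interval -0.65 to 0.95). The long-tail value was -0.29 without knockdown long-tail library 2 and -0.058 without scrambled long-tail library 1, so its sign rested on single libraries. Bak1 had 66 and 48 TPM in knockdown total RNA against 71 and 62 TPM in scrambled total RNA, and 54 and 68 TPM in knockdown long-tail RNA against 55 and 62 TPM in scrambled long-tail RNA. Its log2 differences were -0.23 and 0.05 in total and long-tail RNA (SE 0.202 each), and leaving out 1 library gave -0.46 to -0.0075 in total RNA. The annotated Bak1 gene lies wholly within Ggnbp1, which runs on the opposite strand, and Bad, Bax and Bcl2 overlap annotated genes too, among them Gpr137 for Bad, Gm45808 for Bax and D630008O14Rik for Bcl2.

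Bcl2 had 13 and 21 TPM in knockdown total RNA, against 13 and 25 TPM in scrambled total RNA. In long-tail RNA it had 10 and 7 TPM in knockdown neurons, against 11 and 16 TPM in scrambled neurons. The long-tail groups did not overlap, with knockdown lower by a margin of 1 TPM. The log2 difference was -0.61 there (SE 0.401, 95% interval -1.60 to 0.39, limma adjusted p = 0.662), and -0.12 in total RNA (SE 0.401, limma adjusted p = 1). The long-tail value was -0.38 without knockdown long-tail library 2 and -0.36 without scrambled long-tail library 2. Bcl2l1, the anti-apoptotic member with the higher level in these libraries, had 139 and 126 TPM in knockdown total RNA. Scrambled total RNA had 136 and 146 TPM of it. In long-tail RNA Bcl2l1 had 121 and 164 TPM in knockdown neurons, against 119 and 139 TPM in scrambled neurons. Its log2 differences were -0.09 (95% interval -0.53 to 0.35) and 0.13 (95% interval -0.31 to 0.57) in total and long-tail RNA.

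**Figure D2:**
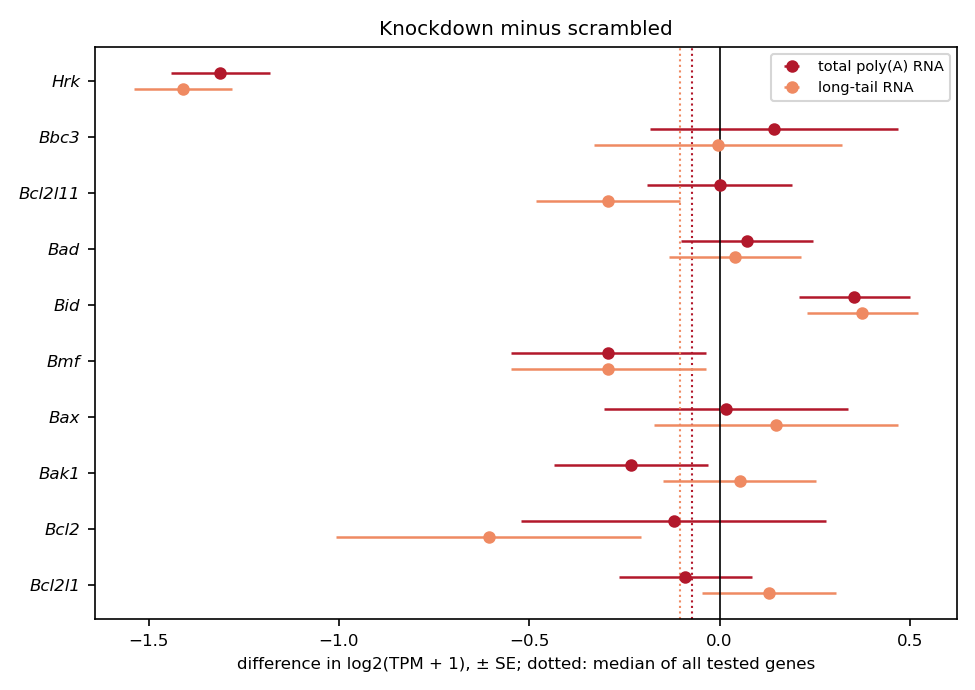
Knockdown minus scrambled difference in log2(TPM + 1) (horizontal axis) for each family member, in total poly(A) RNA and in long-tail RNA; bars are ± SE from the model over 8 libraries and dotted lines are the medians of all tested genes (-0.07 and -0.10). Hrk lies at -1.31 and -1.41, while the other members lie between -0.61 and 0.37.

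Summed over the 6 BH3-only members, knockdown total RNA held 124 and 97 TPM, against 126 and 116 TPM in scrambled total RNA. Long-tail sums were 110 and 131 TPM in knockdown neurons, against 132 and 128 TPM in scrambled neurons. The sums without Hrk were 112 and 86 TPM in knockdown total RNA against 96 and 86 TPM in scrambled total RNA, and 102 and 123 TPM in knockdown long-tail RNA against 107 and 107 TPM in scrambled long-tail RNA. The sums of the other listed BH3-only members thus overlapped between knockdown and scrambled neurons. These sums and the ratios below hold only the 10 members. Bnip3 and Mcl1, which averaged 205.5 and 116 TPM over the 8 libraries, are outside them and are described further below. Hrk made up 9.68% and 11.3% of the BH3-only sum in knockdown total RNA, against 23.8% and 25.9% in scrambled total RNA, and 7.27% and 6.11% in knockdown long-tail RNA, against 18.9% and 16.4% in scrambled long-tail RNA. The ratio of the BH3-only sum to the sum of Bcl2 and Bcl2l1 was 0.816 and 0.660 in knockdown total RNA, against 0.846 and 0.678 in scrambled total RNA. In long-tail RNA the ratio was 0.840 and 0.766 in knockdown neurons, against 1.02 and 0.826 in scrambled neurons. The ratios overlapped between knockdown and scrambled neurons in each fraction. They are descriptions of mRNA shares and carry no test.

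**Figure D3:**
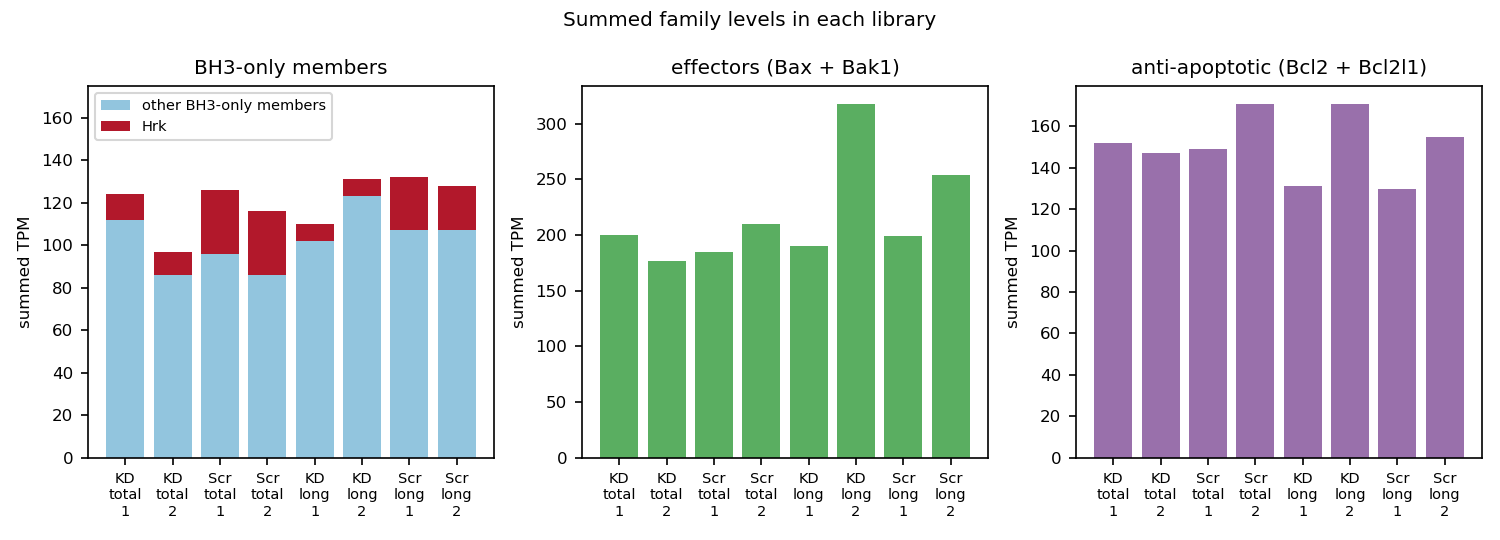
Summed TPM (vertical axes, from 0) of the BH3-only members, the effectors and the anti-apoptotic members in each of the 8 libraries, knockdown (KD) left of scrambled (Scr) within each fraction; the red part of a BH3-only bar is Hrk. Hrk fills 6.11% to 11.3% of the BH3-only bar in knockdown libraries and 16.4% to 25.9% in scrambled libraries, while the blue remainder overlaps between them.

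The comparison of long-tail with total RNA asks which mRNAs take a smaller or larger share of the library once short tails have been washed away. TPM is a share, so it gives neither tail length nor amount of RNA. This contrast was not used to choose Hrk, but its SE rests on the same scatter within groups as the knockdown contrasts. The p-values of Hrk here are therefore not fully independent of that choice. Long-tail minus total, averaged over knockdown and scrambled neurons, was -0.42 for Hrk (SE 0.0913, limma adjusted p = 0.0633), and all tested genes had a median of -0.22. Relative to that median the Hrk value was -0.20, and it lay at the percentile 27.6 among all genes. Hrk had 8 and 8 TPM in knockdown long-tail RNA against 12 and 11 TPM in knockdown total RNA, a difference of -0.47 (limma adjusted p = 0.140). It had 25 and 21 TPM in scrambled long-tail RNA against 30 and 30 TPM in scrambled total RNA, a difference of -0.37 (limma adjusted p = 0.377). Long-tail libraries lay below total libraries in knockdown neurons, as for 40% of all genes, and in scrambled neurons, as for 39.6%. Both held together for Hrk and Bcl2l11 among the members and for 29.4% of all genes. With libraries centred on their medians, the averaged Hrk difference was -0.14 (limma adjusted p = 0.544). Among genes averaging at least 5 TPM Hrk passed the threshold (limma adjusted p = 0.0477), in a fit where 2105 of 11082 genes passed.

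No family member was called in the averaged contrast, where limma called 15 of 13681 genes (0.11%), 14 of them lower in long-tail RNA. At an unadjusted p under 0.05, 2 of 10 members passed, Hrk and Bcl2l11, both lower, while 4697 genes (34.3%) passed in that direction. Bcl2l11 had 1 and 2 TPM in knockdown long-tail RNA against 3 and 3 TPM in knockdown total RNA, and 2 and 2 TPM in scrambled long-tail RNA against 3 and 3 TPM in scrambled total RNA, differences of 1 or 2 rounding steps. Its averaged difference was -0.56 (SE 0.134, limma adjusted p = 0.0648). It was the only member whose 4 long-tail libraries all lay below its 4 total libraries, which held for 18.2% of all genes. The averaged difference of Bcl2l11 was -0.42 without knockdown long-tail library 1 and -0.71 without knockdown long-tail library 2. In both fits its rounded values were the same within each group, so they held no scatter and passing is not read. The averaged Hrk difference stayed at -0.42 in both fits. Bcl2 averaged -0.66 (SE 0.283, limma adjusted p = 0.161), the lowest estimate in the family. Its long-tail libraries, at 10 and 7 TPM, lay below its total libraries, at 13 and 21 TPM, in knockdown neurons.

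Bax, Bad and Bbc3 had the highest long-tail shares relative to total RNA. The averaged difference was 0.42 for Bax (SE 0.227, limma adjusted p = 0.244), at the percentile 98.5 among all genes. It was 0.29 for Bad (SE 0.122, limma adjusted p = 0.158), at the percentile 94.9, and 0.30 for Bbc3 (SE 0.230, limma adjusted p = 0.400). None of the 3 passed. The value for Bax was 0.20 without knockdown long-tail library 2 and 0.64 without knockdown long-tail library 1 (limma adjusted p = 0.0553). That for Bbc3 was 0.064 without scrambled total library 2 and 0.53 without scrambled total library 1. Long-tail libraries of Bax were above its total libraries in knockdown neurons, as for 4.04% of genes, and those of Bad were above its total libraries in scrambled neurons, as for 4.69% of genes. Bid, Bmf, Bak1 and Bcl2l1 had averaged differences of -0.04, 0, -0.04 and -0.02, above the median of all genes. In knockdown neurons alone 0 of 10 members and 0 genes (0%) were called by limma, with 2 of 10 members, Hrk and Bcl2l11, and 3562 genes (26%) at an unadjusted p under 0.05. In scrambled neurons alone 0 of 10 members and 0 genes (0%) were called, with 1 of 10 members, Hrk, and 1800 genes (13.2%) at that level.

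The order of the members followed the length of their 3' UTRs in part. Among all tested genes with an annotated 3' UTR, split by its length into 4 bins of equal size, the median long-tail minus total difference was 0.0022 in the bin up to 444 nucleotides, -0.13 up to 1078 nucleotides, -0.28 up to 2178 nucleotides and -0.48 above that. Hrk, Bcl2l11 and Bcl2 had values of -0.42, -0.56 and -0.66 against the -0.48 of their bin. Bmf, also in that bin and with a Pumilio site printed above, had 0 at its level of 1 or 2 TPM. Bbc3 and Bcl2l1, with 1 Pumilio element each, had 0.30 and -0.02. Bax and Bad, in the shortest bin, had 0.42 and 0.29, above the median there. Length, Pumilio elements and level run together in so few genes, and their parts were not tested.

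**Figure D4:**
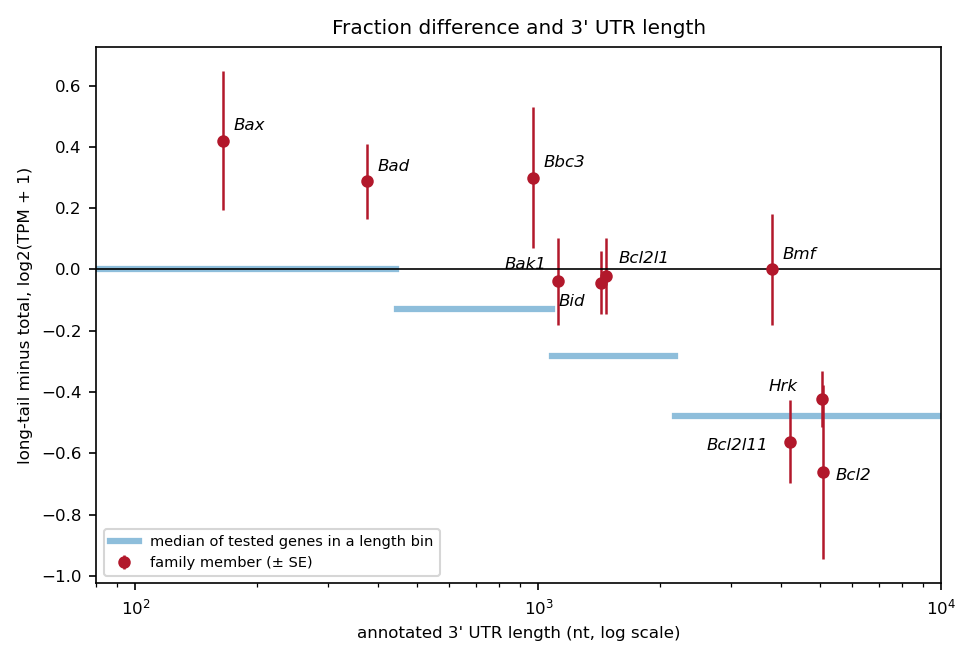
Long-tail minus total difference in log2(TPM + 1), averaged over knockdown and scrambled neurons (vertical axis), against annotated 3' UTR length in nucleotides (horizontal axis, log scale); points are family members with bars of ± SE, and horizontal bars are medians of tested genes in 4 bins of 3' UTR length. Hrk (-0.42), Bcl2l11 (-0.56) and Bcl2 (-0.66) lie near the bar of the longest bin (-0.48), and Bax (0.42) and Bad (0.29) lie above that of the shortest (0.0022).

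Whether the knockdown difference of a member was itself different between fractions was tested as an interaction, the knockdown difference in long-tail RNA minus that in total RNA. For Hrk it was -0.10 (SE 0.183, 95% interval -0.55 to 0.36). Hrk was chosen on both of the knockdown differences that enter this value. The interaction of Hrk is therefore a description, and no test of it is read. The interaction was -0.49 for Bcl2, 0.29 for Bak1 and -0.29 for Bcl2l11 (limma adjusted p = 1 each). Leaving out 1 library gave -0.93 to -0.039 for Bcl2, 0.060 to 0.51 for Bak1 and -0.58 to 0 for Bcl2l11. By limma 0 of 10 members and 0 genes (0%) were called, and at an unadjusted p under 0.05 there were 0 of 10 members and 120 genes (0.877%).

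The genes whose pattern over the 8 libraries was most like that of Hrk were ranked by the root mean square difference of log2(TPM + 1), each gene centred on its own mean, among 11081 genes averaging at least 5 TPM. The median distance from Hrk over these genes was 0.692. Among the 10 nearest were Rab9b (0.180), Ahcyl2 (0.182), Cnot7 itself (0.185), B3galt5 (0.236), Cox15 (0.243), Rasgrf1 (0.258), Tmem30a (0.258) and Stat3 (0.262). Rab9b had 5 TPM in knockdown total RNA and 10.5 TPM in scrambled total RNA. Bcl2l11 and Bmf averaged under 5 TPM and were not ranked. Among the members that were, the nearest was Bcl2, at a distance of 0.638 and rank 3393, while Bid at 0.890 ranked 10291. Hrk was chosen for its knockdown difference, so nearness to it picks genes with a like difference, and the ranking adds no support.

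**Figure D5:**
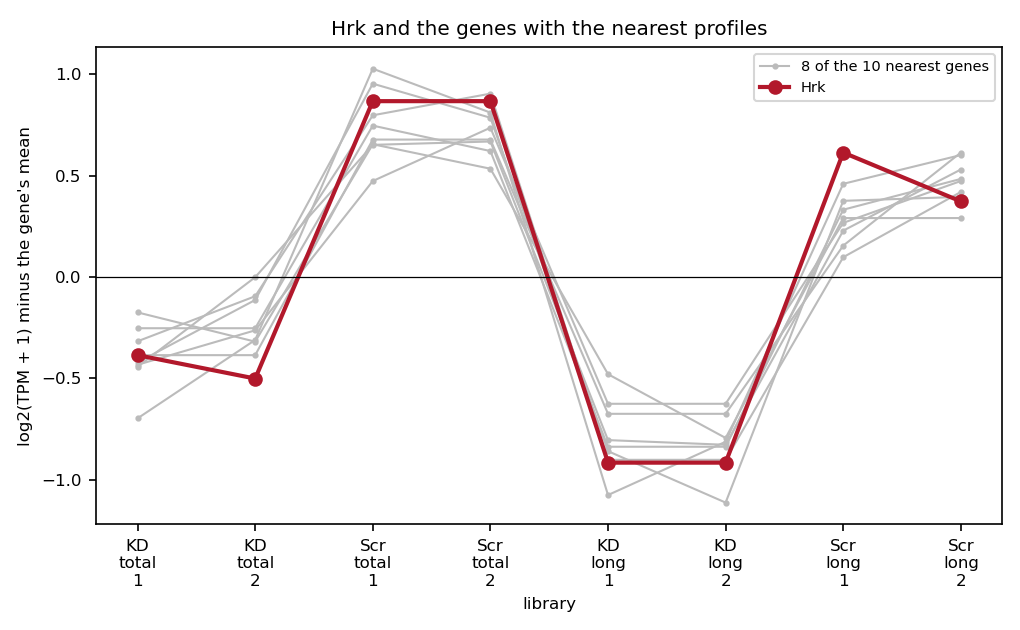
log2(TPM + 1) minus the gene's own mean (vertical axis) in each of the 8 libraries (horizontal axis; lines only join the values of a gene) for Hrk and 8 of the 10 genes with the smallest distance from it, which were chosen for this likeness. Hrk lies between -0.92 and -0.39 in the knockdown libraries and between 0.37 and 0.87 in the scrambled libraries.

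Among 16 other Bcl2 family genes, 9 were expressed well enough to be tested, and 0 were called by limma in knockdown against scrambled neurons in either fraction. In total RNA 4 had higher and 5 lower estimates, with a median of -0.09, and in long-tail RNA 3 had higher and 5 lower estimates, with a median of -0.06. At an unadjusted p under 0.05 there was 1 of 9 genes, Bnip3, in total RNA, against 6.34% of all genes, and 2 of 9, Bnip3 and Bcl2l13, in long-tail RNA, against 8.72%. Bik, Bcl2a1a, Bcl2a1d, Bcl2l10 and Bcl2l14 were listed at 0 in all 8 libraries. Mcl1, an anti-apoptotic gene, had 116 and 134 TPM in knockdown total RNA against 123 and 143 TPM in scrambled total RNA, and Pmaip1 (Noxa) stood at 3 or 4 TPM everywhere. Bnip3, a mitophagy receptor with a BH3-like motif, averaged 149.5 ± 13.4 TPM in knockdown total RNA and 275 ± 65.1 TPM in scrambled total RNA (SD, n = 2 each), a log2 difference of -0.86 by limma (adjusted p = 0.461). In long-tail RNA its difference was -0.81 (limma adjusted p = 0.430). Bcl2l13, a relative that also acts in mitophagy, averaged 22 TPM in knockdown total RNA and 29 TPM in scrambled total RNA, a difference of -0.38.

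Lists of genes acting downstream or upstream of the family held no called gene either. Of the apoptosome, caspase and inhibitor genes 18 of 22 were tested, 5 with higher and 11 with lower estimates in knockdown total RNA (median -0.07). Casp6, an executioner caspase, averaged 5.5 TPM in knockdown total RNA and 10 TPM in scrambled total RNA, a difference of -0.76 (limma adjusted p = 0.512). Casp2, an initiator caspase, differed by -0.30 in total RNA, and Htra2, a mitochondrial protease that counters caspase inhibitors, by 0.38 in long-tail RNA. In the JNK pathway, the known inducer of Hrk, all 17 genes were tested, 8 with higher and 9 with lower estimates in total RNA (median -0.03). Jun averaged 91.5 TPM in knockdown total RNA and 125.5 TPM in scrambled total RNA, a difference of -0.45 (limma adjusted p = 0.758). Its long-tail difference was -0.53 (limma adjusted p = 0.503). Atf3, a stress-induced transcription factor, had 3 TPM in knockdown total RNA and 4 TPM in scrambled total RNA, apart by the rounding step. Mapk8, which encodes JNK1, averaged 26 TPM in knockdown long-tail RNA and 38 TPM in scrambled long-tail RNA (difference -0.55, limma adjusted p = 0.503). The JNK pathway genes named here are those with the smallest p. In long-tail RNA 6 of the 17 had higher and 11 lower estimates. The part of this pathway in the Hrk values was not tested.

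Of the p53, FOXO, E2F and stress regulators of BH3-only genes 15 of 16 were tested, 8 with higher and 6 with lower estimates in total RNA (median 0.02). The transcription factors Mycn and E2f3 differed by 0.60 and 0.35 in total RNA. Foxo3, a regulator of Bcl2l11, differed by -0.94 in long-tail RNA (SE 0.436, limma adjusted p = 0.608). Of the survival signalling genes 17 of 18 were tested, 8 with higher and 9 with lower estimates in total RNA (median -0.10). Mapk3, which encodes the kinase ERK1, had 149 and 132 TPM in knockdown total RNA, against 296 and 281 TPM in scrambled total RNA. Its difference was -1.03 by limma (adjusted p = 0.334), and the authors' deposited table for total RNA lists it at -0.81 in the same direction. Pik3ca, the catalytic subunit of PI3 kinase, differed by -0.82 in long-tail RNA (SE 0.323, limma adjusted p = 0.563). Of the mitochondrial membrane partners 14 of 14 were tested, 5 with higher and 9 with lower estimates in total RNA (median -0.09). Vdac3 and Vdac2, channels of the outer membrane, differed by 0.30 and -0.22 in total RNA. Opa1, which shapes the inner membrane, differed by -0.51 in long-tail RNA (SE 0.217, limma adjusted p = 0.582). The lower knockdown long-tail values of Foxo3, Pik3ca and Opa1, at 12, 7 and 21 TPM, belong to the library that stood apart. Across these 5 lists 0 genes were called by limma in either fraction. Over all genes 6.34% stood at an unadjusted p under 0.05 in total RNA and 8.72% in long-tail RNA. At that level the caspase list had 1 of 18 genes in each fraction. The JNK pathway had 2 of 17 in total RNA and 3 of 17 in long-tail RNA. Survival signalling had 2 of 17 in each fraction, and the other lists 0. These genes were lower in knockdown neurons, apart from 1 survival signalling gene that was higher in total RNA. In the averaged long-tail minus total contrast the mitochondrial partners had a median of 0.05, with 9 of 14 higher, whereas survival signalling genes had a median of -0.40, with 13 of 17 lower. Over all tested genes the median was -0.22, with 10054 of 13681 lower. By limma 0 were called in both lists, and 3 of 14 and 7 of 17 genes were lower at an unadjusted p under 0.05, against 34.3% of all genes.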

How the data were processed

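Poly(A) RNA of 8 libraries was measured by sequencing, with 4 groups of 2 taken from the labels. The submitters' processing notes name RSEM, TopHat2, CASAVA, DESeq2, DESeq and the mm10 build, without versions or roles. The deposited gene values are RSEM TPM, treated as a score because the authors rounded them to whole numbers. The libraries sum to 999689 to 999809, so depth is unknown and no counting interval was made. Names of 27 genes stood as dates. The authors' deposited tables hold a mean normalized-count signal, log2 fold changes and p-values (per the file headers), and their log2 values were turned to knockdown over scrambled, since all 104 and 97 entries had the opposite sign to the TPM differences.

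Values were taken as log2(TPM + 1) for genes averaging at least 1 TPM. A limma model (3.58.1, R 4.3.3) with 4 group means, fitted to all 8 libraries with a mean-variance trend, gave 6 two-sided contrasts, adjusted by Benjamini-Hochberg over the 13681 tested genes and called at 0.05. The fit was tested on simulated data. An exact permutation test of 2 against 2 libraries cannot go below 0.333, so none was run. Members and lists were chosen with earlier results of these data known. Named genes are the members, Cnot7, the 2 genes of each pathway list with the smallest p in each knockdown contrast, the 10 nearest profiles and the leading markers; Mcl1, Pmaip1 and the genes at 0 were named after their values were seen. Some genes that the rule names are not reported here. 3' UTRs and sequences are from GENCODE transcripts on GRCm38, taking the best-ranked APPRIS transcript of each gene, the longest where ranks tied. Alternatives changed the pseudocount, filter, scaling, trend, samples fitted and replicate block, and left out each library.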

Additional observations from a re-analysis of the deposited data

How the results depend on the processing

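Outside Hrk and Bcl2l11, no family member passed the threshold under any setting that was run. Over these settings the knockdown difference of Hrk ran from -1.37 to -1.24 in total RNA and from -1.53 to -1.24 in long-tail RNA. Hrk was chosen for this difference and its libraries did not overlap, so the kept sign adds no support. The count of members called was 1, Hrk, in place of 0, with no filter on low values in knockdown minus scrambled in total RNA and in long-tail RNA, and with a filter at a mean of 5 TPM in long-tail RNA and in the averaged long-tail minus total contrast. Since Hrk was chosen on the knockdown contrasts, its call there is no support. Bcl2l11 crossed the threshold only in fits without knockdown long-tail library 1 or 2, where its rounded values were the same within each group. In fits with 1 library left out, the remaining library of a group is assumed to vary like the other groups. Calls of members in such fits, a call of Hrk in the averaged contrast included, are therefore not read.

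Counts over all genes moved more. The 0 genes of knockdown minus scrambled in total RNA became 43 with no filter, 6 at a mean of 5 TPM, 4 after quantile normalization, 1 without Rn45s and 50 when only the groups compared were fitted. In long-tail RNA they became 54, 5, 1, 1 and 83 in that order. For long-tail minus total in knockdown neurons the 0 genes became 56 with no filter, 1 at a mean of 5 TPM and 97 with only the groups compared, and in scrambled neurons 33, 2 and 87. The 15 genes of the averaged contrast became 9 with no filter, 2105 at a mean of 5 TPM, 1 after quantile normalization, 2 without Rn45s, 2 after median centring, and 0 without a trend. Leaving out 1 library gave up to 1 gene in knockdown minus scrambled in total RNA, 2 in long-tail RNA, 2125 and 57 in long-tail minus total in knockdown and scrambled neurons, and 3263 in the averaged contrast, where the 2125 and 3263 came without knockdown long-tail library 1. The cause was not tested.

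Signs turned only for uncalled values. Bbc3 in long-tail RNA was 0.12 after quantile normalization and 0.15 after median centring. In the averaged long-tail minus total contrast Bid was 0.27, 0.0016 and 0.24 after quantile normalization, without Rn45s and after median centring, Bak1 was 0.14, 0.0085 and 0.25, and Bcl2l1 was 0.087, 0.027 and 0.27. The interaction of Hrk was 0.0056 after quantile normalization. Leaving out 1 library gave, for knockdown minus scrambled in total RNA, -0.33 to 0.61 for Bbc3, -0.12 to 0.26 for Bad, -0.17 to 0.20 for Bax and -0.57 to 0.33 for Bcl2. In long-tail RNA it gave -0.10 to 0.098 for Bbc3, -0.13 to 0.21 for Bad, -0.29 to 0.59 for Bax, -0.11 to 0.22 for Bak1 and -0.087 to 0.35 for Bcl2l1. It gave -0.86 to 0.029 for Bcl2 in long-tail minus total in scrambled neurons, and in the averaged contrast -0.12 to 0.038 for Bid, -0.15 to 0.074 for Bak1 and -0.13 to 0.088 for Bcl2l1. It gave -0.22 to 0.022 for the interaction of Hrk. Without Hrk in the BH3-only sum, the mean ratio to the anti-apoptotic sum was 0.749 in knockdown long-tail RNA, 0.574 in scrambled total RNA and 0.757 in scrambled long-tail RNA. By library this ratio was 0.737 and 0.585 in knockdown total RNA, against 0.644 and 0.503 in scrambled total RNA. The knockdown values thus leaned higher without Hrk and lower with it, with overlap in both cases. Of the 10 genes nearest Hrk all 10 were kept with a pseudocount of 0.5 and 8 with a mean of at least 10 TPM.

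Groups share replicate numbers in the labels, but nothing says that a number marks a shared culture, and the correlation of deviations between same-numbered libraries ran from -0.108 to 0.605. With the replicate number as a block 0 members were called in each of the 6 contrasts, and the 15 genes of the averaged contrast became 0, the other contrasts staying at 0. With the numbers of the knockdown long-tail libraries crossed, a setting chosen after seeing the data, 0 members and 0 genes were called. With 2 libraries a group and values rounded to 1 TPM, knockdown differences in Bcl2l11 and Bmf could not be resolved.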
